A study of Mus musculus with 4 samples.

Results

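The aminoacyl-tRNA synthetases were read on 4 whole-genome arrays of rib chondrocytes from young mice. Members were taken by gene symbol, as every symbol of 1 capital letter followed by ars, alone or with a final 1 or 2, together with Farsa, Farsb and Eprs. The rule found 35 of the 18193 genes that had a probe set of their own. Of these, 16 end in ars2 and encode mitochondrial enzymes, and the other 19 are called cytosolic. The label fits the genes chosen, since each symbol names a synthetase, and no measured value entered the choice.

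All mice were on the C57BL6/J background and 5 days old, and costochondral chondrocytes were freed from the rib cartilage with collagenase. There were 4 genotypes: wild type (Xbp1 WT), XBP1 null (labelled Xbp1 KO, the allele Xbp1 Col2CreΔex2), Matn3 mutant (Matn3 V194D with Xbp1 WT) and the double mutant, which joins Matn3 V194D to Xbp1 Col2CreΔex2. Matn3 V194D is an allele of matrilin-3, a cartilage matrix protein, that models a human epiphyseal dysplasia, and Xbp1 encodes a transcription factor of the unfolded protein response. Exon 2 of Xbp1 was removed by a Cre recombinase driven by the collagen II promoter, so the deletion is limited to cells in which that promoter has been active, and other cells of a preparation keep the gene. Each genotype had 1 array, hybridized to RNA pooled from 3 extractions. There were therefore no replicates, comparisons of single arrays carry no error and no p-value, and differences between pools of animals cannot be told apart from differences between genotypes.

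Aminoacyl-tRNA synthetases join each amino acid to its own transfer RNA, the step that gives the genetic code its meaning. Mammalian cells have nuclear genes for a cytosolic set and for a separate mitochondrial set, while Gars and Kars each supply both compartments. Several cytosolic enzymes are held together in a multisynthetase complex by scaffold proteins, and the enzymes fall into a pair of structurally unrelated classes. In mammalian cells many cytosolic synthetase genes, but few mitochondrial ones, are known as targets of ATF4, the transcription factor made when the kinases PERK or GCN2 phosphorylate the initiation factor eIF2α. Chondrocytes secrete large amounts of collagen and proteoglycan, so protein synthesis is a main task of these cells.

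The values are linear intensities, called signals here, with a median of 43.8 on each array, and values under 1 made up 8.36% to 10.9% of an array. Matn3 had signals of 9945 to 10572, and the 14 genes of the chondrocyte marker list had a median signal of 10170 to 11500 per array, so the defining markers of the labelled cell type were present. Xbp1 had a signal of 8183 (wild type), 7877 (XBP1 null), 11403 (Matn3 mutant) and 9548 for the double mutant, and a probe set outside the deleted exon cannot show the deletion. Wherever 4 signals follow each other below, they are in this order of genotypes. The Y-linked gene Eif2s3y had signals of 484, 665, 0.032 and 855 in that order, so the Matn3 mutant pool differed from the other pools in this gene. The sex of the pooled mice is not given in the labels. In comparisons with the Matn3 mutant array, a difference in the sex of the pools therefore cannot be told apart from one of genotype. In RNA of whole preparations, fewer cells of a type and less RNA per cell cannot be told apart.

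All 19 cytosolic synthetases and 12 of the 16 mitochondrial ones lay at or above the median intensity of all probe sets, and 16 cytosolic but 0 mitochondrial genes had a mean signal of 512 or more, which is 9 on the log2 scale. The background for the cytosolic set was therefore taken from the 4979 genes above that bound, called bright genes, with Farsa, Wars and Vars under it, and for the mitochondrial set from the 10982 genes at or above the median. Summed over the 19 cytosolic genes, the signal was 27800 (wild type), 42300 (XBP1 null), 43780 (Matn3 mutant) and 39790 for the double mutant. Summed over the 16 mitochondrial genes, it was 2847, 2884, 2486 and 2873. The cytosolic sum was lowest on the wild type array, whereas the mitochondrial sum was lowest on the Matn3 mutant array. Signals of different probe sets are not set against each other here, because probes differ in their response.

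**Figure D1:**
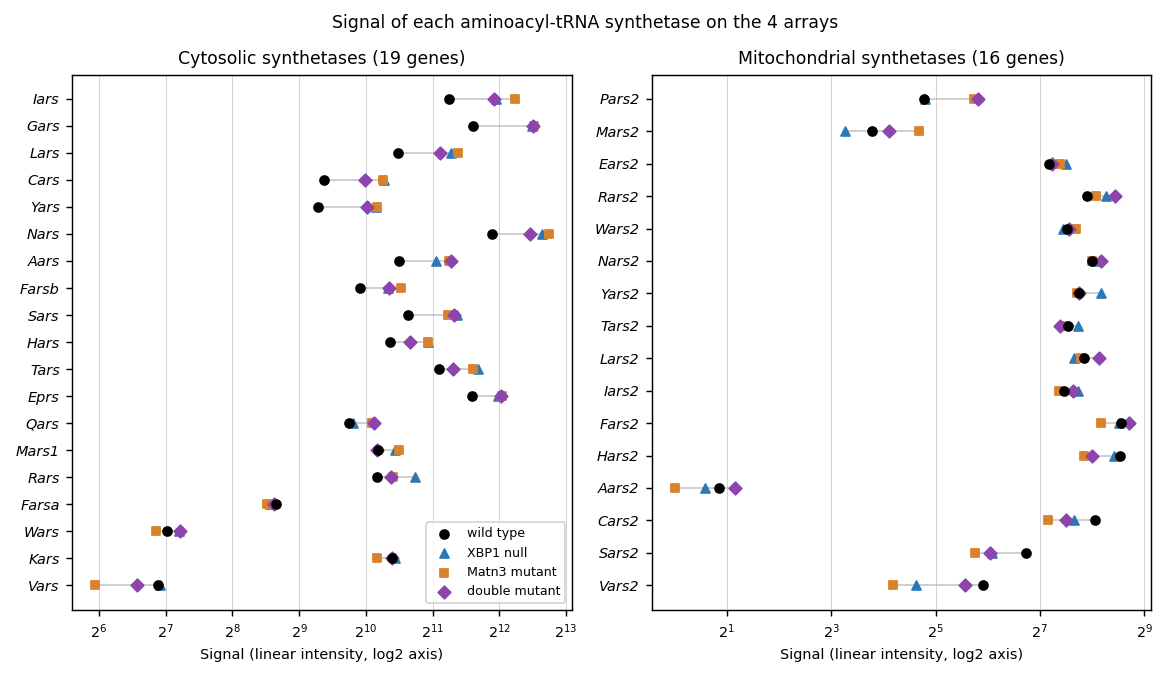
Signal of each synthetase on the 4 arrays (linear intensity on a log2 axis, 1 point per array, left 19 cytosolic and right 16 mitochondrial genes, brightest probe set of each gene). In 14 of the 19 cytosolic genes (73.7%) the wild type point lies furthest left, from 622 for Yars to 3812 for Nars among the 8 leading higher genes. Wild type was also the lowest array for 35.5% of genes at or above the median intensity. Mitochondrial genes show no common order.

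In Matn3 mutant chondrocytes, 9 of 19 cytosolic synthetases (47.4%) were over 1.5-fold higher than in wild type and 1 (5.26%) was lower. Of all bright genes, 11.7% were higher and 11% lower by that measure. The median log2 difference was 0.58 for the cytosolic set and -0.02 for bright genes. The 9 higher genes, from the largest difference down, were Iars, Gars, Lars, Cars, Yars, Nars, Aars, Farsb and Sars, and the lower gene was Vars. Each difference rests on a single pair of arrays.

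Iars, the isoleucyl-tRNA synthetase of the multisynthetase complex, had a signal of 2434 (wild type), 3944 (XBP1 null), 4817 (Matn3 mutant) and 3880.2 for the double mutant. The Matn3 mutant array was the highest, 1.98-fold above wild type, and the other mutant arrays were 1.62-fold and 1.59-fold above it. Gars, the glycyl-tRNA synthetase that serves both cytosol and mitochondria, had signals of 3121, 5759, 5883 and 5813 in that order. The 3 mutant arrays were nearly level for Gars, at 1.85-fold, 1.88-fold and 1.86-fold above wild type. Gars was thus among the largest differences of the cytosolic set from wild type on each mutant array.

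Lars, the leucyl-tRNA synthetase that also acts as a leucine sensor, had signals of 1429.8, 2483, 2675 and 2204. Cars, the cysteinyl enzyme, had 661, 1238, 1222 and 1014. Yars, the tyrosyl enzyme, had 622, 1142, 1144 and 1034. For all 3 genes the wild type array was the lowest and the double mutant array lay between wild type and the single mutants.

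Nars, the asparaginyl enzyme, had signals of 3812, 6378, 6859 and 5623 in that order, again with wild type lowest and double mutant next. Aars, the alanyl enzyme, had signals of 1440.2, 2128, 2425 and 2471, with the double mutant array highest at 1.72-fold above wild type. Sars, the seryl enzyme, was 1.53-fold higher in Matn3 mutant, 1.67-fold in XBP1 null and 1.63-fold in double mutant chondrocytes than in wild type. Farsb, the beta subunit of phenylalanyl-tRNA synthetase, was 1.53-fold higher in Matn3 mutant chondrocytes, just inside the bound, and Hars, the histidyl enzyme, was just outside it at 1.49-fold (1.495). Tars, the threonyl enzyme, was 1.42-fold higher, Eprs, which joins the glutamyl and prolyl activities in 1 protein, 1.37-fold by its brightest probe set alone, Qars, the glutaminyl enzyme, 1.27-fold, Mars1, the methionyl enzyme, 1.24-fold, and Rars, the arginyl enzyme, 1.18-fold.

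A few cytosolic genes stood apart from this pattern. Vars, the valyl enzyme, had signals of 118 (wild type), 121 (XBP1 null), 61.4 (Matn3 mutant) and 94.6 for the double mutant. The Matn3 mutant array was thus the low one for Vars, 1.92-fold below wild type. Farsa, the alpha subunit of the phenylalanyl enzyme, had signals of 401, 379, 367 and 394, the narrowest range of the cytosolic genes, with the highest value 1.09-fold above the lowest. Its partner Farsb had 962, 1283, 1475 and 1296, so the genes of the same enzyme gave unlike values on these arrays. Kars, the lysyl enzyme, had signals of 1338, 1388, 1148 and 1348, and the tryptophanyl enzyme Wars had signals of 116 to 149, neither past 1.5-fold in any comparison.

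Promoter sequence was read for the genes that move together, since ATF4 binds a short element that genes of amino acid metabolism share. RefSeq promoters (build GRCm38.p6, 250 bases before to 50 after the start) were matched for 26 members, 12 cytosolic and 14 mitochondrial. The letters TGATGNAA, the core of the amino acid response element, were searched on both strands and found in 5 of 12 cytosolic promoters (41.7%), those of Aars, Gars, Iars, Tars and Yars, and in 0 of 14 mitochondrial ones. Of all 27025 promoters, 4.51% hold these letters. Of the 5 genes, Gars, Iars, Yars and Aars were over 1.5-fold higher in Matn3 mutant chondrocytes and Tars was 1.42-fold higher. Of the 7 cytosolic promoters without the letters, those of Eprs, Farsa, Farsb, Kars, Mars1, Qars and Sars, 2 belong to genes over 1.5-fold higher there, Farsb and Sars. Cars, Hars, Lars, Nars, Rars, Vars and Wars had no promoter to search, though Lars, Cars and Nars were also over 1.5-fold higher there. Whether the letters go with the differences was not tested. The stretches around the matches follow, with the matched letters in capitals, 5′ to 3′ along the gene's strand.
Aars, chr8:111033690-111033871, plus strand: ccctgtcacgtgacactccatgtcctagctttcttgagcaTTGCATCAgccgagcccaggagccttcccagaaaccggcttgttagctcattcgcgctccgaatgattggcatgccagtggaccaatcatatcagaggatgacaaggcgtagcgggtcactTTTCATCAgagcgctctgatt
Gars, chr6:55037931-55037998, plus strand: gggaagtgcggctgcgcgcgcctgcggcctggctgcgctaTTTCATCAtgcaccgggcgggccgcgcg
Iars, chr13:49682097-49682159, plus strand: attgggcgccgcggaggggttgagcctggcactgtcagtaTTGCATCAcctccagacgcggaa
Tars, chr15:11399646-11399713, minus strand: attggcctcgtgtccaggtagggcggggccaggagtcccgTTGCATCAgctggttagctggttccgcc
Yars, chr4:129189866-129189932, plus strand: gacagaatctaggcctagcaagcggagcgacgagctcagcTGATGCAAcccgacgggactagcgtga

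In Aars the letters occur at bases -112 to -105 and again at 10 to 17, counted from the start as base 1 with no base 0, and in Gars at -30 to -23. In Iars they lie at 8 to 15, in Tars at -15 to -8 and in Yars at 4 to 11. They stand on the gene's own strand in Yars and on the opposite strand in the other 4. The E-box CACGTG was found in 4 of 12 cytosolic promoters, Aars, Farsb, Iars and Tars, and in that of Ears2, beside 8.09% of all promoters. The letters TGACGTGG, an XBP1-binding core, were found in 0 members and in 0.714% of all promoters, and the ER stress response element, CCAAT and CCACG with 9 bases between, in 0 members and 0.137% of all. A match is no proof of binding, and no match says only that these letters are not in this window.

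In XBP1 null chondrocytes, 7 of 19 cytosolic synthetases (36.8%) were over 1.5-fold higher than in wild type and 0 were lower, against 15.9% of bright genes that were higher and 1.89% that were lower. They were Cars (1.87-fold), Gars (1.85-fold), Yars (1.84-fold), Lars (1.74-fold), Nars and Sars (1.67-fold each) and Iars (1.62-fold). The median log2 difference of the set was 0.57, and that of bright genes 0.14. Tars, Hars, Rars and Aars lay just under the bound, between 1.48-fold and 1.5-fold (1.478 for Aars, 1.499 for Tars). Qars, Kars and Vars lay within 1.05-fold of wild type, and Farsa was 1.06-fold lower.

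**Figure D2:**
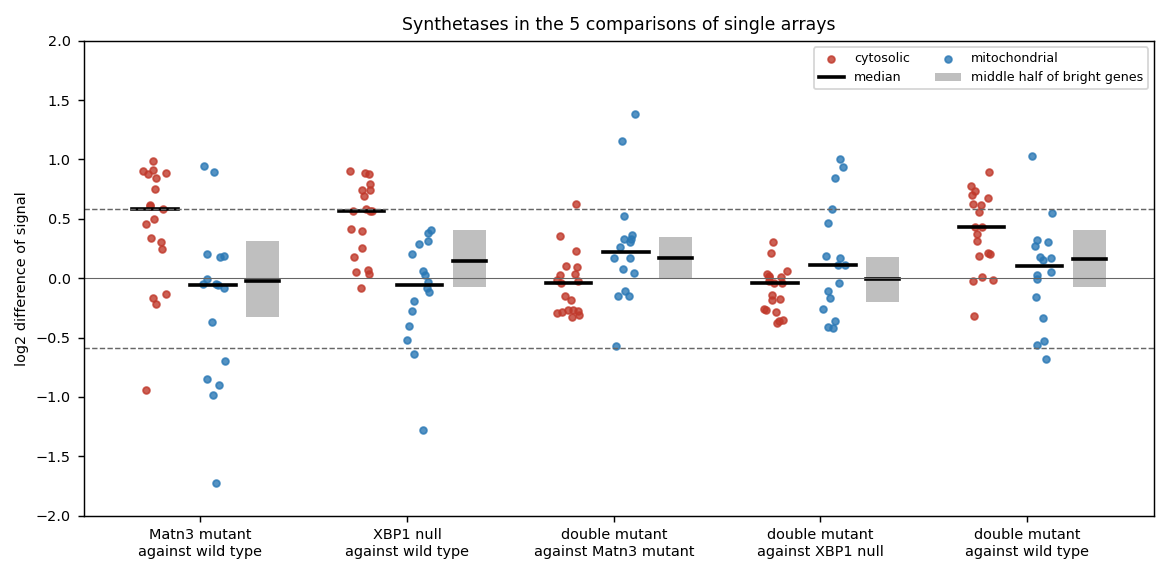
log2 difference of signal in 5 comparisons of single arrays, 1 point per gene, red for the 19 cytosolic and blue for the 16 mitochondrial synthetases; black bars are medians, the grey box spans the 25th to 75th percentile of bright genes, and dashed lines mark 1.5-fold. The cytosolic medians are 0.58, 0.57 and 0.43 against wild type and -0.04 in both comparisons of the double mutant with a single mutant.

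In double mutant chondrocytes, 7 cytosolic synthetases (36.8%) were over 1.5-fold higher than in wild type and 0 lower, against 12.8% of bright genes higher and 2.83% lower. These were Gars, Aars, Yars, Sars, Iars, Lars and Cars, from 1.86-fold for Gars to 1.53-fold for Cars. After quantile normalization of the arrays, 3 genes passed 1.5-fold. With the median over a gene’s probe sets, Cars turned to a log2 difference of -0.66 and the median of the set became 0.24. The median log2 difference was 0.43, beside 0.16 for bright genes. The differences against wild type described so far all use the same wild type array, so they are not separate evidence, and a low wild type array would enter each of them.

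Between the double mutant and either single mutant the cytosolic set differed little. Against the Matn3 mutant, 1 gene (5.26%), Vars, was over 1.5-fold higher and 0 were lower, where 6.13% of bright genes were higher and 1.59% lower. Its difference was 1.54-fold. Against XBP1 null, 0 of 19 passed 1.5-fold either way, where 2.83% of bright genes were higher and 5.3% lower. The median log2 difference of the set was -0.04 in both comparisons, beside 0.17 for bright genes against the Matn3 mutant and -0.01 against XBP1 null. Lars was 1.21-fold lower in the double mutant than in the Matn3 mutant and 1.13-fold lower than in XBP1 null chondrocytes, and Tars was 1.23-fold (1.225) and 1.3-fold (1.297) lower. The wild type array does not enter these comparisons.

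The departure from additive effects was also computed, as the double mutant minus both single mutants plus wild type on the log2 scale. For the cytosolic set its median was -0.61 (-0.605), with a range of -1.17 to 0.59, and it was below 0 in 15 of 19 genes (78.9%). Of bright genes, 47.8% were below 0, and their median was 0.03. It passed 1.5-fold below 0 in 11 cytosolic genes (57.9%) and in 15.2% of bright genes. For Gars it was -0.90 and for Iars -1.01. Each such value rests on all 4 arrays, and a wild type array that is low for these genes cannot be told apart from effects that do not add up. For the 16 mitochondrial genes the median was 0.09 (0.085), 7 were below 0 (43.8%), 0 passed 1.5-fold below 0 and 4 (25%), Vars2, Aars2, Sars2 and Cars2, passed it above 0. Of genes at or above the median intensity, whose median was also 0.09 (0.093), 44.2% were below 0, 17.3% passed 1.5-fold below and 20% above.

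Within the cytosolic set, members were compared by complex and by class. Of the 7 genes whose enzymes belong to the multisynthetase complex, 2 (28.6%) were over 1.5-fold higher in Matn3 mutant than in wild type chondrocytes, with a median of 0.34. In XBP1 null 2 (28.6%) were higher, with a median of 0.39. Both times these were Iars and Lars. Of the 12 genes outside the complex, 7 (58.3%) and 5 (41.7%) were higher, with medians of 0.61 and 0.58. Of bright genes, 11.7% and 15.9% were higher in these comparisons. The 10 class I genes had medians of 0.40 and 0.48 in these comparisons, and the 9 class II genes 0.61 and 0.57. Without Gars and Kars, which serve both compartments, 8 (47.1%) and 6 (35.3%) of 17 were higher, with medians of 0.58 and 0.57. These counts are descriptions of small groups, and differences between the groups were not tested.

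Many cytosolic genes had further probe sets, which measure other stretches of the transcript. Of 15 dimmer probe sets at or above the median intensity, 4 were over 1.5-fold higher in Matn3 mutant than in wild type chondrocytes and 0 lower. XBP1 null chondrocytes had 3 such probe sets higher and 1 lower. By their brightest probe sets, 13.2% of genes at or above the median intensity rose past 1.5-fold in the Matn3 mutant, and 17.6% fell. For XBP1 null these shares were 18.8% and 5.82%, so the counts of dimmer probe sets there lay near the background. The difference had the sign of the brightest probe set in 10 of the 15 in each of these comparisons. How often signs agree for other genes was not computed. The second probe set of Nars was 1.86-fold and 1.89-fold higher in these comparisons, that of Sars 1.9-fold (1.902) and 1.76-fold, that of Iars 2.14-fold and 1.44-fold, that of Aars 1.37-fold and 1.42-fold, and that of Hars 1.43-fold and 1.5-fold (1.503). These 5 genes were thus higher by both of their probe sets.

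Eprs, Farsb and Qars were less uniform. The brightest probe set of Eprs had signals of 3077, 4045, 4223 and 4154, but another, of a kind that can match several transcripts, had 2022, 1909.9, 1536 and 1119. The former was lowest and the latter highest in wild type, so the direction of Eprs depends on the probe set. Its remaining probe sets had log2 differences from wild type of 0.03 and -0.001 in the Matn3 mutant. In XBP1 null chondrocytes these were -0.07 and -0.53. The brightest probe sets of Iars, Aars, Sars, Farsb, Qars and Wars are also of the kind that can match several transcripts. A further probe set of Farsb had 983, 1387, 1039 and 917, and was 1.06-fold higher in Matn3 mutant chondrocytes where the brightest was 1.53-fold higher. The brightest probe set of Qars had 858, 900.2, 1086 and 1112, whereas another had 1008, 939, 807 and 938. The dim second probe set of Cars had signals of 9.09, 15.8, 16.9 and 2.38, and Gars, Lars, Yars, Tars, Rars, Mars1, Kars and Vars had 1 probe set each.

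**Figure D3:**
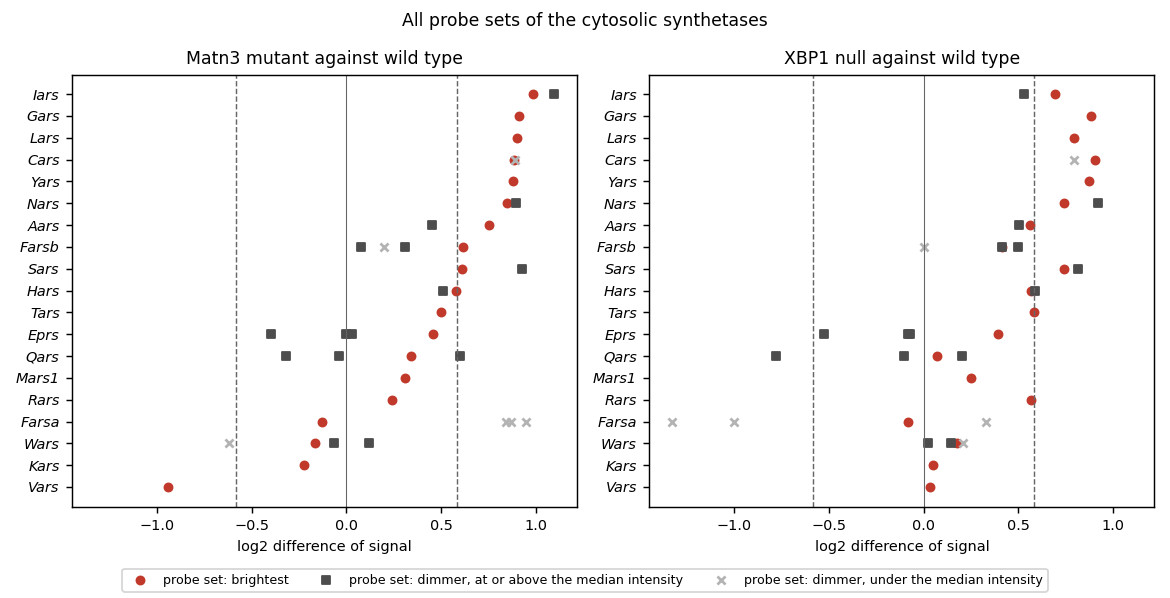
log2 difference from wild type of every probe set of the 19 cytosolic synthetases, left for the Matn3 mutant and right for XBP1 null chondrocytes; circles are the brightest probe set, squares dimmer ones at or above the median intensity, crosses those under it, and dashed lines mark 1.5-fold. The probe sets of Nars, Sars, Iars, Aars and Hars lie close together on the higher side, while those of Eprs and Qars lie on both sides of 0.

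The mitochondrial synthetases behaved differently from gene to gene. In Matn3 mutant chondrocytes 2 of 16 (12.5%) were over 1.5-fold higher than in wild type and 5 (31.2%) lower, where 13.2% and 17.6% of genes at or above the median intensity were higher and lower. The median log2 difference was -0.05, and that of the background -0.08 (-0.075). The lower genes were Vars2, Sars2, Cars2, Aars2 and Hars2, and the higher ones Pars2 and Mars2. Of these 7, Aars2, Mars2, Pars2 and Vars2 were dim, with no signal over 59.8 on any array, and lay under the median intensity.

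Vars2, the mitochondrial valyl enzyme, had signals of 59.8 (wild type), 24.6 (XBP1 null), 18.1 (Matn3 mutant) and 47.3 for the double mutant. Both single mutant arrays were low, 2.43-fold (2.425) and 3.3-fold (3.304) below wild type, and the double mutant array was 1.26-fold below it. Sars2, the seryl enzyme, had signals of 106, 68.2, 53.8 and 66.4, so that all 3 mutant arrays were over 1.5-fold below wild type. Cars2, the cysteinyl enzyme, had signals of 267, 202, 143 and 180.5, with the Matn3 mutant array lowest, 1.86-fold below wild type. Hars2, the histidyl enzyme, had signals of 369, 341, 228 and 257, and was 1.62-fold lower in the Matn3 mutant. A second probe set of Hars2 was 1.04-fold lower there.

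Pars2, the prolyl enzyme, had signals of 27.5, 28.0, 53.0 and 56.1, so both arrays that carry Matn3 V194D were about 1.9-fold to 2-fold above both that do not (1.931 and 2.004 for the Matn3 mutation with and without XBP1). Mars2, the methionyl enzyme, had signals of 13.8, 9.63, 25.6 and 17.3, but its other probe set, also dim, had 5.37, 19.8, 19.9 and 11.7, which order the arrays differently. Aars2, the alanyl enzyme, had signals of 1.8, 1.49, 1.0 and 2.23, close to the floor of 1, and its differences carry little information. Rars2, the arginyl enzyme, had 238, 309, 270.4 and 348, with the double mutant array 1.46-fold above wild type. Nars2 and Wars2, the asparaginyl and tryptophanyl enzymes, lay nearest to level, within 1.13-fold of wild type on every mutant array.

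In XBP1 null chondrocytes, 0 of 16 mitochondrial synthetases were over 1.5-fold higher than in wild type and 2 (12.5%), Vars2 and Sars2, were lower, where 18.8% and 5.82% of genes at or above the median intensity were. Against the Matn3 mutant, the double mutant had 2 genes higher, Vars2 (2.62-fold, 2.615) and Aars2, and 0 lower, where 11.9% and 3% of the background were. Against XBP1 null it had 3 genes higher (18.8%), Pars2, Vars2 and Mars2, and 0 lower, where 7.38% and 10.5% of the background were. Against wild type it had 1 gene higher, Pars2, and 1 lower, Sars2, where 16% and 6.89% of the background were. The medians of the mitochondrial set in these 4 comparisons were -0.06, 0.22, 0.11 and 0.10. The remaining genes, Ears2, Fars2, Iars2, Lars2, Nars2, Rars2, Tars2, Wars2 and Yars2, passed 1.5-fold in no comparison.

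Additive effects of Matn3 V194D and of XBP1 loss were fitted over all 45037 probe sets in limma, which leaves 1 residual degree of freedom. The fit called 0% of probe sets for either effect at an adjusted p under 0.05. Before adjustment, 3381 and 2052 of the 45037 had a limma p under 0.05, and without any effect a share of 0.05 would pass that bound. Of the 35 synthetases, 0 were called and 0 had an unadjusted p under 0.05 for either effect, and the smallest limma adjusted p of a member was 0.635 (Hars2) for the Matn3 mutation and 0.819 (Aars) for the loss of XBP1. For Gars the fitted effects were 0.46 ± 0.33 (SE) and 0.43 ± 0.33 on the log2 scale, about as large as their errors. In this model a departure from additive effects counts as error, and it was large for the cytosolic genes, as given above. No difference of a synthetase is therefore supported by a test on these arrays.

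Other genes around tRNA charging were read from lists. Of 16 genes for partners of the synthetases and for other steps of tRNA charging, 0 were over 1.5-fold higher and 7 (43.8%) lower in Matn3 mutant than in wild type chondrocytes, with a median of -0.40, where 13.2% and 17.6% of genes at or above the median intensity were higher and lower. This list also holds Tarsl2, a further threonyl-tRNA synthetase gene that the symbol rule did not take, which was 1.54-fold lower there. Gatb, a subunit of the mitochondrial glutamyl-tRNA amidotransferase, had signals of 55.0 (wild type), 35.9 (XBP1 null), 9.61 (Matn3 mutant) and 21.98 for the double mutant. Dtd2, a deacylase that clears mischarged tRNA, was 2.65-fold lower in the Matn3 mutant, Aarsd1, an editing protein, 1.86-fold, and Pstk, a kinase for selenocysteine tRNA, 1.73-fold. The 3 scaffold proteins of the multisynthetase complex, named for their role and not by their values, gave log2 differences of -0.37 (Aimp1), -0.02 (Aimp2) and 0.41 (Eef1e1) there, and of 0.06, 0.25 and 0.51 in XBP1 null chondrocytes. The scaffold genes thus did not pass 1.5-fold. In XBP1 null and in double mutant chondrocytes 1 of the 16 genes was higher than in wild type, Yrdc, which acts in tRNA modification, and 2 were lower (12.5%), with a median of -0.08 each time, where 5.82% and 6.89% of that background were lower.

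Of 9 genes of translation elongation, 0 passed 1.5-fold in any comparison with wild type, with medians of -0.20 (Matn3 mutant), 0.06 (XBP1 null) and 0.13 for the double mutant. Of genes at or above the median intensity, 13.2%, 18.8% and 16% were higher in these comparisons and 17.6%, 5.82% and 6.89% lower. The list includes the kinase Eef2k and the mitochondrial factors Gfm1, Gfm2, Tsfm and Tufm. Of 34 mitochondrial ribosomal proteins, 1 was higher (2.94%) and 9 lower (26.5%) in the Matn3 mutant, with a median of -0.27, where 13.2% and 17.6% of genes at or above the median intensity were higher and lower. The same list had 3 higher and 0 lower in XBP1 null and 1 higher and 0 lower in double mutant chondrocytes, with medians of 0.01 and -0.03, where the background had 18.8% and 16% higher and 5.82% and 6.89% lower. In the Matn3 mutant the log2 difference was -0.79 for Mrps15 and 0.80 for Mrps2.

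Genes for amino acid synthesis and transport, many of which are also known ATF4 targets, were higher in numbers. Of 20 such genes, 15 were over 1.5-fold higher in Matn3 mutant than in wild type chondrocytes and 0 lower, 13 against 1 in XBP1 null, and 12 against 0 in the double mutant, with medians of 0.87, 0.74 and 0.84. These are 75%, 65% and 60% of the list on the higher side, where 13.2%, 18.8% and 16% of genes at or above the median intensity were higher. Slc7a1, a cationic amino acid transporter, had signals of 1676, 4969.6, 5494 and 4651. Slc7a11, the cystine transporter, had 32.4, 133, 188 and 118. For both genes wild type was lowest and the mutant arrays lay within 1.6-fold of each other (at most 1.593). For Slc7a1 and Slc7a11 the double mutant array lay between wild type and the single mutants, an order that the list as a whole did not share. Of the 20 genes, 14 were higher in the double mutant than in XBP1 null, with a median log2 difference of 0.16. Against the Matn3 mutant 9 were higher and 11 lower, with a median of -0.01.

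Atf4 itself had signals of 10502, 12128, 12786 and 13478, which are log2 differences of 0.21, 0.28 and 0.36 from wild type. These are values of its RNA, whereas the protein is set mainly by translation. Of the 15 genes for ATF4 and its feedback, 7 passed 1.5-fold on the higher side in the Matn3 mutant, 4 in XBP1 null and 7 in the double mutant, with 0 lower and medians of 0.46, 0.21 and 0.50 (0.495). These counts are 46.7%, 26.7% and 46.7% of the list, beside the same 13.2%, 18.8% and 16% of the background, so the share in XBP1 null lay near it. The list was not uniform. By sign alone, 10, 8 and 14 of the 15 genes lay above 0 in these comparisons and 5, 7 and 1 below. In the Matn3 mutant, Chac1 (log2 difference of -0.45) and Atf3 (-0.42) were among those below 0, and Ddit3 was level (0.001). Atf5, a related transcription factor, had signals of 448, 903, 1533 and 1819. Atf5 was thus highest in the double mutant, unlike most cytosolic synthetases.

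**Figure D4:**
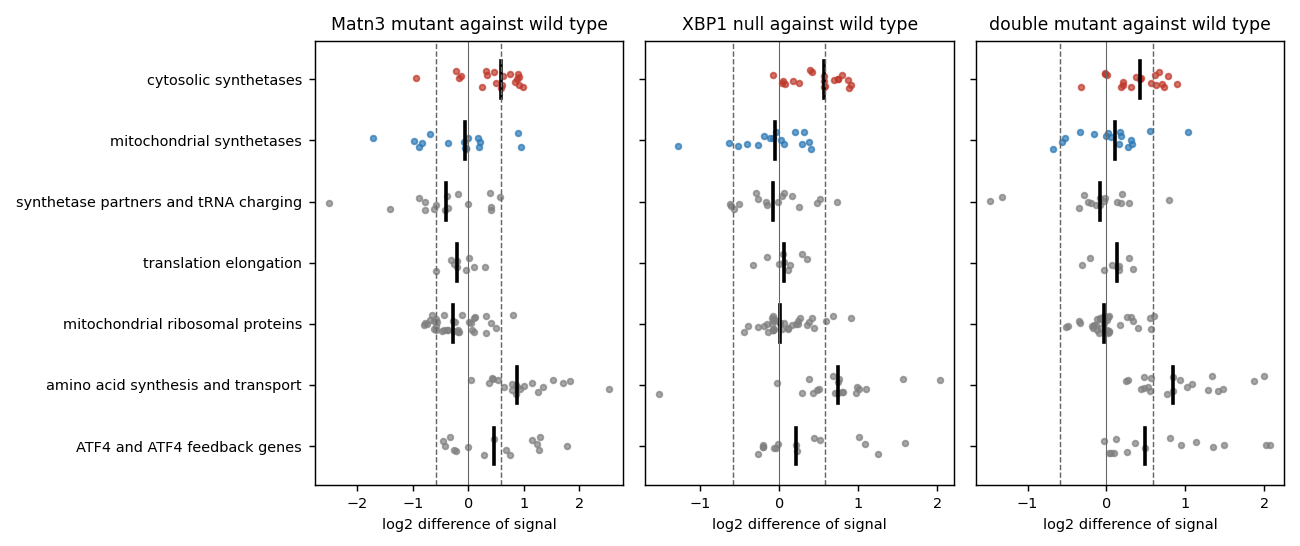
log2 difference from wild type for the synthetases and 5 other gene lists in Matn3 mutant, XBP1 null and double mutant chondrocytes, 1 point per gene, with a black bar at each median and a dashed line at 1.5-fold. Amino acid genes (medians 0.87, 0.74 and 0.84) and cytosolic synthetases (0.58, 0.57 and 0.43) lie mostly to the right of 0. In the Matn3 mutant the partners of the synthetases (median -0.40) and the mitochondrial ribosomal proteins (-0.27) lie mostly to the left of it.

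Markers of other cells also moved between the arrays. The summed signal of 11 endothelial markers was 276 (wild type), 6214 (XBP1 null), 785 (Matn3 mutant) and 1399 for the double mutant. In the Matn3 mutant, XBP1 null and the double mutant, 8, 11 and 9 of the 11 were over 1.5-fold higher than wild type. Of all genes, 21.2%, 23.3% and 24.1% were. Under a signal of 1 lay Pecam1 and Tie1 in wild type and Pecam1 in the Matn3 mutant and the double mutant. In the double mutant against XBP1 null all 11 were over 1.5-fold lower, with a median log2 difference of -2.20, where 16.9% of all genes were. Summed signals of 10 leukocyte markers were 615 to 875, of 7 osteoblast markers 17130 to 22500, of 10 skeletal muscle markers 2031 to 3257 and of 5 erythroid markers 56.0 to 239. Endothelial and leukocyte sums were lowest in wild type, as was the cytosolic synthetase sum. This order was not particular to them. The chondrocyte marker sum was also lowest there, at 150700, with 161300 (XBP1 null), 167100 (Matn3 mutant) and 176000 for the double mutant. The sum over all genes was lowest in wild type as well. The part of other cells in the differences from wild type was not tested.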

How the data were processed

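RNA of rib chondrocytes was pooled by the authors from 3 extractions per genotype and hybridized to Mouse430_2 Affymetrix arrays, 1 per genotype. The deposited values are linear intensities, with summarization and normalization not given in the sources used here. For quality checks the authors named Microarray Suite 5, and for differential expression PPLR, which takes probe-level errors and was not applied. Array number, not depth, limits precision.

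Intensities were set to at least 1 and taken as log2, without further scaling. Of 45037 probe sets, 34945 name 1 gene, 932 several and 9160 none. The brightest probe set (highest mean log2 on the arrays) stood for a gene. The 35 members have 72 probe sets, 23 have more than 1, and 1 probe set that names Aars with another gene was left out. There were 5 comparisons of single arrays, with differences over 1.5-fold counted and without a test.

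The additive model was fitted in limma 3.58.1 (R 4.3.3) with eBayes, a trend on intensity and Benjamini-Hochberg adjustment, and was tested on simulated data. Other steps used pandas 2.3.3 and numpy 2.4.6 under Python 3.11.15. Promoters came from RefSeq (GRCm38.p6), and 9 members had no entry. The members and lists were chosen with earlier results of these data known. Every member could be named, with values on all arrays for up to 8 per compartment with the largest differences and for those nearest 0, and up to 4 genes of each other list by size of difference; scaffold genes, and genes picked to show another probe set or pattern, were added. The bound of 9 for bright genes was chosen after values were seen. Alternatives were centring, quantile normalization, a floor at the 25th percentile, the median over a gene’s probe sets, omission of those that can cross-hybridize, a fit on probe sets at or above the median, and eBayes without trend.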

Additional observations from a re-analysis of the deposited data

Results flagged for a closer look

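Both effects were read on 2 backgrounds, and the differences between backgrounds below were not tested. The Matn3 mutation went with a median log2 difference of 0.58 in the cytosolic synthetases when XBP1 was present and of -0.04 when it was absent. For the loss of XBP1 the medians were 0.57 with wild type Matn3 and -0.04 with Matn3 V194D. In the mitochondrial synthetases the medians were -0.05 and 0.11 for the Matn3 mutation and -0.06 and 0.22 for the loss of XBP1. Vars2 differed by -1.72 and 0.94 for the Matn3 mutation, and by -1.28 and 1.39 for the loss of XBP1, on a dim probe set. In each pair the first value uses the wild type array and the second the double mutant array. For any gene, the change between backgrounds is the same number for both effects. That number is the departure from additive effects computed above, which was 2.665 for Vars2. The pairs for the Matn3 mutation and for the loss of XBP1 are therefore not separate evidence.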

How the results depend on the processing

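Centring each array on its median shifted differences by at most 0.0014 in size and changed none of the counts or medians by over 1.5 times or 0.1. No paired analysis was possible because each genotype has 1 array. Under quantile normalization the cytosolic median became 0.39 in XBP1 null and 0.28 in double mutant chondrocytes against wild type, with 3 rather than 7 genes higher in the latter, and -0.18 in the double mutant against the Matn3 mutant; the mitochondrial median in the Matn3 mutant became 0.054. With a floor at the 25th percentile (5.52), 1 rather than 2 mitochondrial genes were higher in the double mutant than in the Matn3 mutant. With the median over probe sets, the cytosolic median was 0.24 in the double mutant against wild type (2 genes lower), -0.15 against the Matn3 mutant (2 lower) and -0.14 against XBP1 null (1 lower). Mitochondrial counts then were 3 lower in the Matn3 mutant, 1 higher and 4 lower in XBP1 null and 2 higher in the double mutant, all against wild type, and 1 lower in the double mutant against the Matn3 mutant. Cars in the double mutant against wild type then turned to -0.66, since its dim second probe set enters the median. Without probe sets that can cross-hybridize, the cytosolic median was 0.46 in the Matn3 mutant and 0.31 in the double mutant against wild type, and -0.14 in the double mutant against XBP1 null. The causes of the other changes were not tested. The limma fit called 0 members after centring, quantile normalization, the floor, the restriction to probe sets at or above the median and eBayes without trend. It was not run on the median over probe sets or without those that can cross-hybridize. With probe sets at or above the median it called 13 probe sets for the Matn3 mutation. The 4 members under the median intensity are limited by signal over background.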
